A study of Mus musculus with 9 samples.

Results

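Collagen chain genes were examined in the hearts of C57BL/6 mice as all genes of the expression table whose symbol reads Col, a type number, a and a chain number. The table holds 41 such genes among 16951. The members were 11 genes of fibrillar collagens, 6 of the basement membrane collagen type IV, 8 of the fibril-associated collagens (FACIT), 7 of the beaded filament and anchoring types VI, VII and XXVIII, 2 of the short-chain network type VIII, 2 multiplexins, 4 transmembrane collagens and Col26a1. Messenger RNA was sequenced in 3 groups of 3 libraries each. Mice of one group were treated with prostaglandin E1 (PGE1, a vasodilating lipid mediator) on top of angiotensin II (AngII, a hormone that raises blood pressure and enlarges the heart), those of another with AngII alone, and those of the last with saline. The study, by its title, asked whether PGE1 limits hypertrophy under AngII, with netrin-1 and the prostaglandin receptor EP3 as the route. Dose, route, duration, age and sex are not given in the labels used. Library numbers 1 to 3 follow the order of the table's columns and pair nothing. Separate animals are not stated for the libraries, so a p-value reflects their spread alone, and that spread may be technical.

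Collagens are secreted proteins in which 3 chains wind into a triple helix. In the heart, fibroblasts make most of the fibrillar types I and III, which carry tension between myocytes. Endothelial cells, mural cells and myocytes contribute type IV, a sheet-forming collagen of the basement membrane around vessels and muscle cells. An increase of fibrillar collagen is the defining feature of cardiac fibrosis, which AngII is known to induce.

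Levels are given as FPKM, a fragment count per transcript length and sequencing depth, so they can be compared between genes. By an approximate estimate, 1 FPKM stood for 12.4 to 15.7 reads per kilobase of transcript in a library. Markers of heart muscle were abundant in all libraries, with Myh6, the adult myosin heavy chain, at 4196 to 6262 FPKM. The first principal component of the 11902 tested genes held 62.3% of the variance and cut across the groups, since AngII+PGE1 1 and saline 2 fell on the side of the 3 AngII libraries. AngII 2 stood apart for collagens. It was the highest of the 9 libraries for 29 of the 41 genes and the highest AngII library for all 20 tested collagens, tied with AngII 1 for Col4a4. AngII+PGE1 1 was the lowest of the 9 libraries for 17 of these 20, and saline 2 was the lowest saline library for 18.

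Across the 41 genes the summed level was 175.6, 307.9 and 330.9 FPKM in the AngII+PGE1 libraries, 476.4, 1796 and 618.2 FPKM in the AngII libraries, and 729.4, 408.5 and 593.6 FPKM in the saline libraries. The AngII+PGE1 libraries all lay below every other library. The AngII and saline libraries overlapped, and only AngII 2 exceeded saline 1. Fibrillar chains held 33.3%, 34.8% and 31.5% of the collagen sum with AngII+PGE1, 38.9%, 61.6% and 56.0% with AngII, and 32.7%, 32.5% and 33.2% with saline. By this measure the AngII libraries were all above both other groups, while AngII+PGE1 and saline libraries lay within a few percent of each other. Basement membrane chains held 35.7%, 32.4% and 39.4% with AngII+PGE1, 32.2%, 17.4% and 23.1% with AngII, and 39.3%, 41.6% and 39.8% with saline. In bulk tissue, fewer cells of a type and less RNA per cell cannot be told apart.

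**Figure D1:**
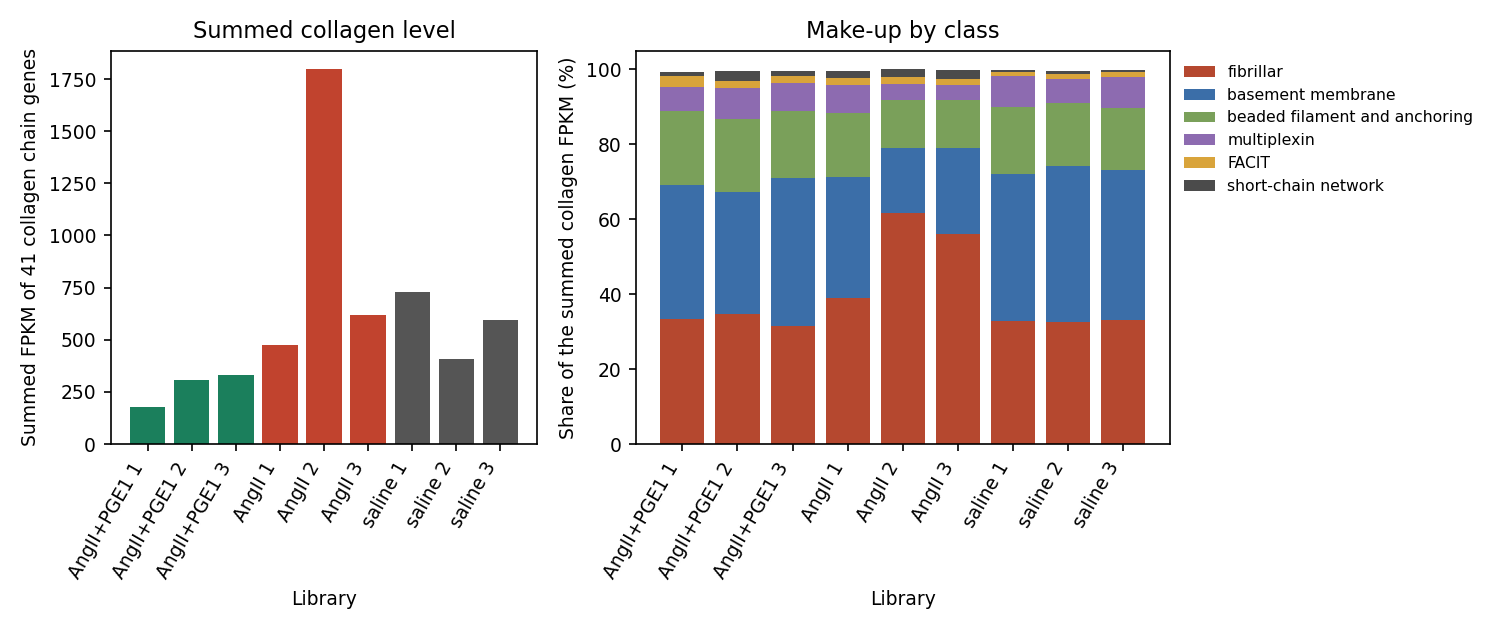
Left, summed FPKM of the 41 collagen chain genes in each library (bars start at 0). Right, percent of that sum held by 6 collagen classes; the transmembrane chains and Col26a1 make up the small remainder. The fibrillar share is 38.9% to 61.6% in the AngII libraries and 31.5% to 34.8% in the other 6.

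Of the 41 genes, 20 reached 1 FPKM in at least 3 libraries and were tested with limma on log2(FPKM + 1), with p-values adjusted over all 11902 tested genes and a threshold of 0.05. Differences below are on this scale, which understates the change of low genes. Without its AngII libraries Col27a1 would not have passed the filter, nor would Col4a4 without its saline libraries. In AngII vs saline, 1 collagen of 20 rose and 19 did not pass, against 3.11% of all tested genes called. In AngII+PGE1 vs AngII none of 20 passed, against 0.403% of all tested genes, and in AngII+PGE1 vs saline none passed, against 0.0168%. Calls were few throughout, so library overlap is given beside them. The AngII libraries lay all above the saline libraries for 4 of 20 collagens (Col1a2, Col8a1, Col16a1 and Col27a1), near the background of 17.9% of all tested genes, and all below for none. The AngII+PGE1 libraries lay all below the AngII libraries for 15 of 20, against 19.7% of all tested genes. They lay all below the saline libraries for 12 of 20, against 7.89% of all tested genes. The 15 include Col27a1 and the 12 include Col4a4, which passed the filter only through the higher group. The 20 collagens also shared their extreme libraries, AngII 2 and AngII+PGE1 1, so these counts are not of 20 independent observations. Differences were above 0 for 13 of 20 in AngII vs saline, against 50.1% of all tested genes. They were below 0 for 20 of 20 in AngII+PGE1 vs AngII (19 under median-ratio or quantile scaling, where Col20a1 turned), against 56.8%, and for 18 of 20 in AngII+PGE1 vs saline, against 66%. The median difference of the 20 was 0.26 for AngII vs saline, -1.06 for AngII+PGE1 vs AngII and -0.72 for AngII+PGE1 vs saline. For all tested genes the medians were 0.00109, -0.0789 and -0.0704. An unadjusted limma p under 0.05 was reached by 6 of 20 collagens in AngII vs saline, against 35% of all tested genes, by 16 of 20 in AngII+PGE1 vs AngII, against 33.6%, and by 8 of 20 in AngII+PGE1 vs saline, against 4.23%. The first and second comparisons share the AngII libraries, and the others share a group likewise, so they are not independent. Without AngII 2 the median of the 20 in AngII vs saline was -0.07, with 10 of 20 below 0, whereas in AngII+PGE1 vs AngII it was -0.67, with 20 of 20 below 0.

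**Figure D2:**
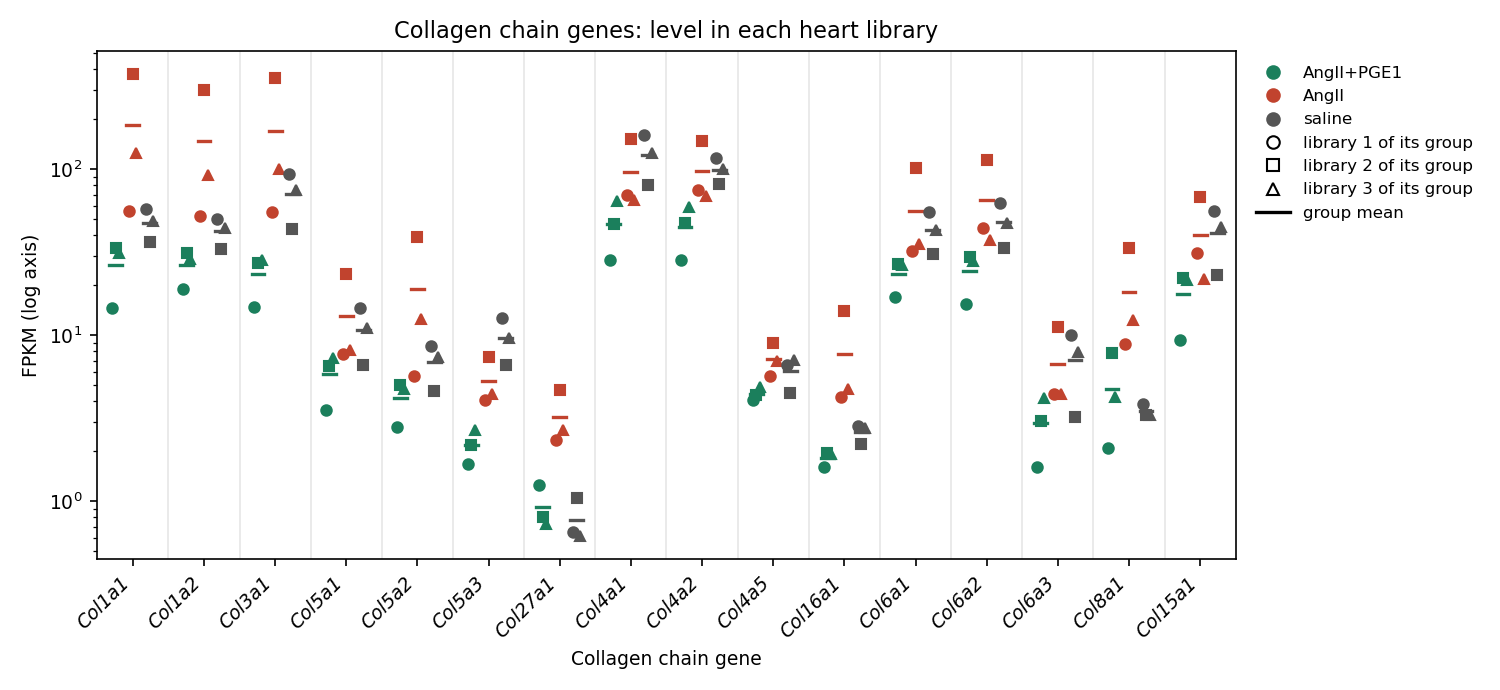
FPKM of 16 collagen chain genes (log axis) in each library, coloured by group, with symbols for the library number and a line for the group mean (n = 3 each). AngII 2 (red square) is the highest AngII library for each gene, and green points (AngII+PGE1) lie lowest for most.

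Type I collagen, the main fibril of the heart, is built from chains of Col1a1 and Col1a2. Col1a1 stood at 14.63, 33.7 and 31.45 FPKM with AngII+PGE1, 56.41, 375.52 and 124.72 FPKM with AngII, and 57.56, 36.45 and 48.92 FPKM with saline. AngII 1 lay within the saline range, AngII 2 and 3 lay above it, and all AngII+PGE1 libraries lay below it. The AngII+PGE1 vs AngII difference was -2.42 (SE 0.57, limma adjusted p = 0.059) and the AngII vs saline difference 1.54 (SE 0.57, limma adjusted p = 0.0992), so neither passed. Col1a2 was at 18.95, 31.43 and 28.96 FPKM with AngII+PGE1, 52.38, 301.68 and 92.15 FPKM with AngII, and 50.31, 33.16 and 44.42 FPKM with saline. Here the 3 groups did not overlap, although AngII 1 and saline 1 differed by little. Its differences were -2.09 for AngII+PGE1 vs AngII (SE 0.51, limma adjusted p = 0.0596) and 1.41 for AngII vs saline (SE 0.51, limma adjusted p = 0.0947).

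Col3a1 encodes the single chain of type III collagen, which assembles into fibrils with type I. Its level was 14.86, 27.2 and 28.22 FPKM with AngII+PGE1, 55.37, 352.42 and 100.83 FPKM with AngII, and 93.95, 43.74 and 74.83 FPKM with saline. Unlike for the type I chains, AngII 1 lay among the saline libraries rather than at their upper edge, and the AngII+PGE1 libraries all lay below saline. The differences were -2.43 for AngII+PGE1 vs AngII (SE 0.57, limma adjusted p = 0.059), 0.88 for AngII vs saline (SE 0.57, limma adjusted p = 0.28) and -1.54 for AngII+PGE1 vs saline (SE 0.57, limma adjusted p = 1). Without AngII 2 the AngII+PGE1 vs AngII differences of Col1a1, Col1a2 and Col3a1 were -1.71, -1.39 and -1.69, and their AngII vs saline differences 0.83, 0.71 and 0.14.

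Type V collagen is a minor fibrillar collagen that nucleates type I fibrils, and its chains differed from each other. Col5a2 was at 2.79, 5.03 and 4.73 FPKM with AngII+PGE1, 5.68, 38.83 and 12.58 FPKM with AngII, and 8.62, 4.64 and 7.36 FPKM with saline. Col5a1 was at 3.56, 6.55 and 7.34 FPKM with AngII+PGE1, 7.74, 23.45 and 8.11 FPKM with AngII, and 14.58, 6.6 and 11.02 FPKM with saline. For both, AngII+PGE1 lay wholly below AngII and AngII overlapped saline. The remaining chain gene, Col5a3, was lower in AngII than in saline by group mean. It was at 1.69, 2.19 and 2.69 FPKM with AngII+PGE1, 4.09, 7.38 and 4.41 FPKM with AngII, and 12.73, 6.63 and 9.58 FPKM with saline. Saline was highest, apart from saline 2, which lay below AngII 2, and AngII+PGE1 was lowest without overlap. Its AngII+PGE1 vs saline difference of -1.71 (SE 0.26, limma adjusted p = 0.132) did not pass. Its AngII vs saline difference was -0.75 (SE 0.26, limma adjusted p = 0.0872). Without saline 2 the AngII+PGE1 vs saline difference was -1.93 (limma adjusted p = 0.0217) and the AngII vs saline difference -0.97 (limma adjusted p = 0.0158), where 0.194% and 38.1% of all genes were called.

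Col27a1, a fibrillar collagen gene known from cartilage and developing tissues, was the single member past the threshold. Its level was 1.26, 0.8 and 0.73 FPKM with AngII+PGE1, 2.34, 4.68 and 2.68 FPKM with AngII, and 0.65, 1.05 and 0.62 FPKM with saline. All AngII libraries lay above all others, and the other groups overlapped. Col27a1 rose in AngII vs saline by 1.22 on the log2 scale (SE 0.22, limma adjusted p = 0.0403). This call is not independent of the filter, which Col27a1 passed only through its AngII libraries. The AngII+PGE1 vs AngII difference was -1.10 (SE 0.22, limma adjusted p = 0.0557). The call was lost without any filter (limma adjusted p = 0.0506), with a term for the side of the first component (difference 0.996, limma adjusted p = 0.0918) and when AngII 2, AngII 3, AngII+PGE1 2, AngII+PGE1 3, saline 1 or saline 3 was left out, with adjusted p-values of 0.0558 to 0.204 and differences of 0.99 to 1.30. Without AngII 2, AngII 3, saline 1 or saline 3 no gene at all was called in this comparison. Without AngII+PGE1 2 or AngII+PGE1 3 the calls were 0.126% and 0.261% of all tested genes. With no filter and with the side term they were 0.519% and 0.176%. All AngII libraries fell on the same side, so the side term rests on saline 2 and AngII+PGE1 1 within their groups. With a minimum of 5 FPKM Col27a1 was not tested.

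The bases before the start of 4 fibrillar genes are shown because Col1a2 and Col3a1 were among the most abundant chains, Col27a1 was the gene called and Col5a3 was lower with AngII than with saline by mean. They are the 250 bases before the RefSeq start (GRCm38.p6), 5′ to 3′ on the strand of the gene. Capitals mark 5 motifs searched on both strands. They are the CCAAT box, the GC box with letters GGGCGG, the TATA box with letters TATAAA, the SMAD element with letters CAGACA and the TEAD element with letters GGAATG. Col1a2 is at chr6:4505368-4505617 on the plus strand, Col3a1 at chr1:45311288-45311537 on the plus strand, Col27a1 at chr4:63215162-63215411 on the plus strand and Col5a3 at chr9:20815068-20815317 on the minus strand.
Col1a2: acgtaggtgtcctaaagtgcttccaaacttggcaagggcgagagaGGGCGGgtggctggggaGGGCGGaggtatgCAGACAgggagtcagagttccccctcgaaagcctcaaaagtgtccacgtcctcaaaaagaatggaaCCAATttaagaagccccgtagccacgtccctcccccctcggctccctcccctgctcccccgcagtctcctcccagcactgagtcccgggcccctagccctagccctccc
Col3a1: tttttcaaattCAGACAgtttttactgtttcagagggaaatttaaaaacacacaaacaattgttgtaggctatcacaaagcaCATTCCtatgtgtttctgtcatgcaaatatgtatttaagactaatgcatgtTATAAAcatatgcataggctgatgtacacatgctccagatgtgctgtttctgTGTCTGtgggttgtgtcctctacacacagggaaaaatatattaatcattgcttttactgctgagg
Col27a1: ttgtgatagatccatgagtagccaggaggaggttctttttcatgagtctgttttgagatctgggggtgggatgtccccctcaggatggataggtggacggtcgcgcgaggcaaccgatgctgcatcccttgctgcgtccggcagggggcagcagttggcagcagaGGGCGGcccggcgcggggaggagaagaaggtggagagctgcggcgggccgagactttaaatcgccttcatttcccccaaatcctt
Col5a3: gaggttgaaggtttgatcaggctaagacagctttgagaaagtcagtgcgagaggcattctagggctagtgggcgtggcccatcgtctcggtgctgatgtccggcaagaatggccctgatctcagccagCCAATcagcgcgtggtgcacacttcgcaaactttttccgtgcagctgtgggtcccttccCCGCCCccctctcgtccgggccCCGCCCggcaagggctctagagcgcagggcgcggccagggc

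Col1a2 and Col5a3 each had a CCAAT match, at -109 to -105 and at -122 to -118 from the start. GGGCGG matched 2 times in Col1a2, 2 times in Col5a3 and 1 time in Col27a1. Col1a2 also had a CAGACA match, while Col3a1 had 2 matches of the SMAD letters, 1 of the TEAD letters and TATAAA at -117 to -112. Of the members, 32 matched the promoter table, with 34 windows. CCAAT was present in 32.4% of these windows and in 33.8% of all 32851 windows of the same length, GGGCGG in 61.8% and 32.7%, TATAAA in 11.8% and 12.4%, CAGACA in 26.5% and 17.1%, and GGAATG in 11.8% and 12.6%. A match describes letters in the window, not a site in use.

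**Figure D3:**
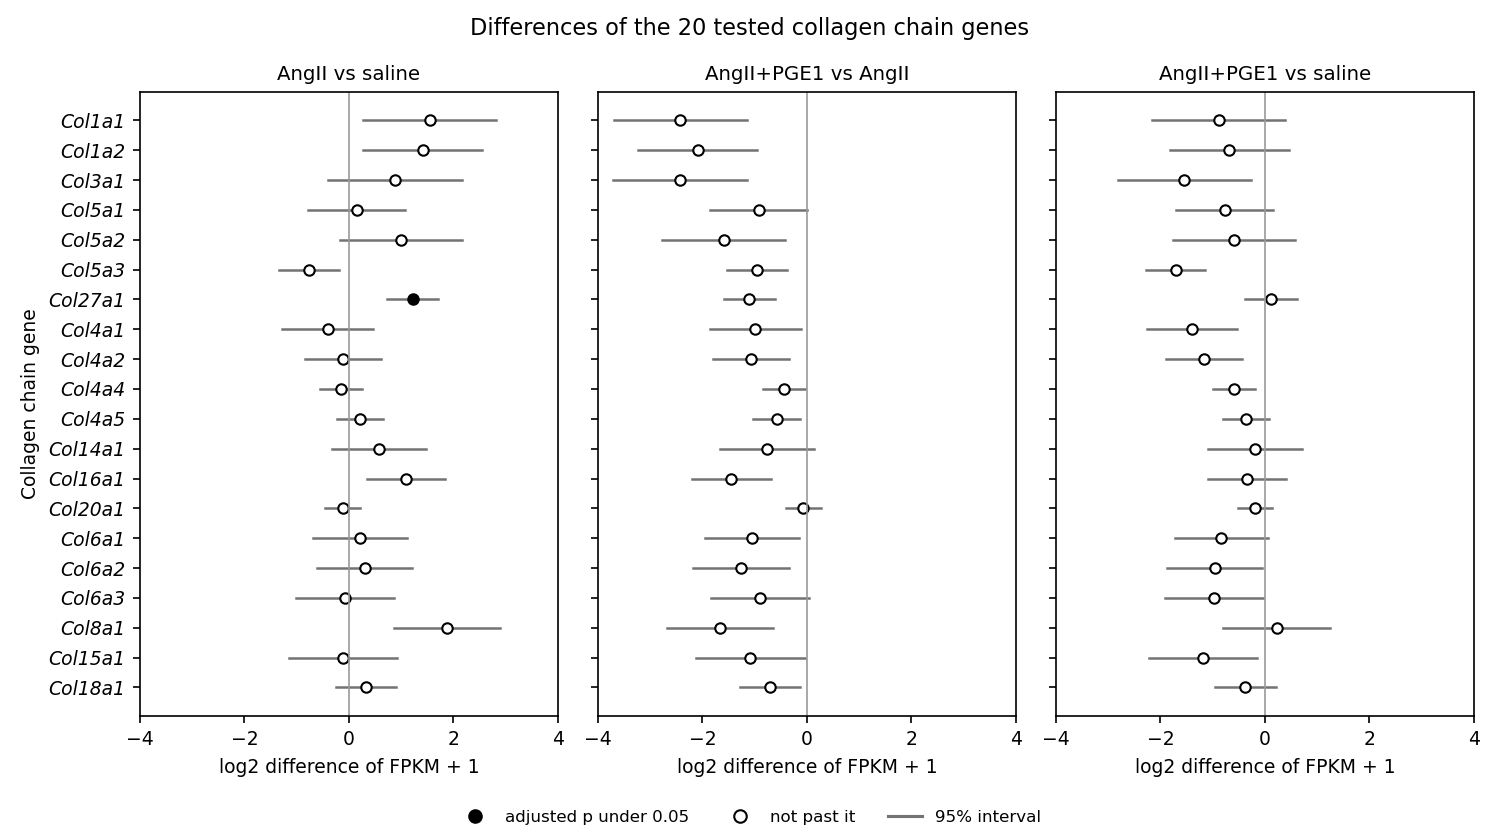
log2 differences of FPKM + 1 for the 20 tested collagen chain genes in the 3 comparisons, with 95% intervals of the limma fit; the filled point passed the threshold. Col27a1 in AngII vs saline is filled, and in AngII+PGE1 vs AngII all 20 points lie below 0 (19 under median-ratio or quantile scaling).

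None of the 4 tested basement membrane chains passed in any comparison. Col4a1 and Col4a2 encode the chains of the common type IV network. Col4a1 was at 28.56, 46.98 and 64.65 FPKM with AngII+PGE1, 69.51, 152.39 and 65.69 FPKM with AngII, and 161, 80.83 and 125.88 FPKM with saline. Col4a2 was at 28.58, 47.21 and 59.45 FPKM with AngII+PGE1, 75.25, 147.42 and 68.58 FPKM with AngII, and 116.34, 81.44 and 100.6 FPKM with saline. For both genes the AngII+PGE1 libraries lay below all others, and AngII 1 and 3 lay below every saline library while AngII 2 lay just below saline 1 for Col4a1 and above it for Col4a2. The AngII+PGE1 vs saline difference was -1.39 for Col4a1 (SE 0.39, limma adjusted p = 0.962) and -1.17 for Col4a2 (SE 0.33, limma adjusted p = 0.962). Their AngII vs saline differences were -0.41 and -0.11, with 95% intervals of -1.27 to 0.46 and -0.83 to 0.62. The summed level of 7 endothelial markers was 251.4 to 342.0 FPKM with AngII+PGE1, 267.4 to 424.3 FPKM with AngII and 395.8 to 485.6 FPKM with saline. AngII+PGE1 and saline did not overlap in that sum; 4 of the 7 markers had AngII+PGE1 libraries all below saline, against 7.89% of all tested genes, none of the 7 passed, and their part in the type IV levels was not tested.

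The genes Col4a1 and Col4a2 lie head to head, and their RefSeq starts overlap by 22 bases at chr8:11312805-11312826 (GRCm38.p6, plus strand). This stretch is shown because both genes begin within it; no motif was searched there.
Col4a1 and Col4a2 shared stretch: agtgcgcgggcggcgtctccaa
The ratio of Col4a1 to Col4a2 was 0.999, 0.995 and 1.09 with AngII+PGE1, 0.924, 1.03 and 0.958 with AngII, and 1.38, 0.993 and 1.25 with saline, and the chains stayed close to equal in 7 libraries and Col4a1 was higher in saline 1 and 3. Col4a5, a chain of the type IV network known from kidney and muscle, was at 4.1, 4.35 and 4.88 FPKM with AngII+PGE1, 5.65, 9.02 and 7.01 FPKM with AngII, and 6.62, 4.51 and 7.08 FPKM with saline. It varied less than the abundant chains, with an AngII+PGE1 vs AngII difference of -0.58 (SE 0.20, limma adjusted p = 0.0944). Col4a4 was at 0.75 to 0.93 FPKM with AngII+PGE1, 0.89 to 1.83 FPKM with AngII and 1.62 to 1.89 FPKM with saline.

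Type VI collagen forms beaded filaments next to the basement membrane from chains of Col6a1, Col6a2 and Col6a3. Col6a1 was at 17.06, 26.87 and 26.58 FPKM with AngII+PGE1, 32.07, 101.48 and 35.42 FPKM with AngII, and 55.21, 31 and 42.79 FPKM with saline. Col6a2 was at 15.43, 29.49 and 28.14 FPKM with AngII+PGE1, 44.41, 113.65 and 37.51 FPKM with AngII, and 62.79, 33.79 and 47.15 FPKM with saline. AngII+PGE1 lay below both other groups for these chains, and AngII 1 and 3 lay within the saline range. Col6a3 was lower throughout, at 1.62, 3.06 and 4.2 FPKM with AngII+PGE1, 4.46, 11.23 and 4.42 FPKM with AngII, and 10.02, 3.24 and 7.9 FPKM with saline. The AngII+PGE1 vs AngII differences were -1.05, -1.26 and -0.90 for Col6a1, Col6a2 and Col6a3, with limma adjusted p-values of 0.111, 0.0854 and 0.159.

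The short-chain collagen gene Col8a1, whose product forms networks in vessel walls and injured tissue, had the largest AngII vs saline difference of the 20 tested collagens. It was at 2.11, 7.87 and 4.24 FPKM with AngII+PGE1, 8.88, 33.5 and 12.36 FPKM with AngII, and 3.85, 3.32 and 3.32 FPKM with saline. All AngII libraries lay above all others, and AngII+PGE1 spread across the narrow saline range. Its AngII+PGE1 vs AngII difference was -1.66 (SE 0.46, limma adjusted p = 0.0664) and its AngII vs saline difference 1.88 (SE 0.46, limma adjusted p = 0.0526), both short of the threshold. With a minimum of 5 FPKM the AngII vs saline difference passed (limma adjusted p = 0.0478), but Col8a1 met that minimum only through its AngII libraries. It also passed with quantile normalization and with the 2 compared groups only (limma adjusted p = 0.0473 and 0.0475). Without any filter and with the term for the side of the first component it did not (limma adjusted p = 0.0793 and 0.0851).

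Among FACIT genes, whose products sit on the surface of fibrils, 3 of 8 were tested and none passed. Col16a1 was at 1.61, 1.96 and 1.93 FPKM with AngII+PGE1, 4.27, 14.06 and 4.73 FPKM with AngII, and 2.85, 2.21 and 2.77 FPKM with saline. Its groups did not overlap at all, with AngII highest and AngII+PGE1 lowest. The differences of Col16a1 were -1.44 for AngII+PGE1 vs AngII (SE 0.34, limma adjusted p = 0.059) and 1.10 for AngII vs saline (SE 0.34, limma adjusted p = 0.0734). Col14a1 was at 1.98 to 3.23 FPKM with AngII+PGE1, 2.54 to 11.75 FPKM with AngII and 2.02 to 3.59 FPKM with saline, and all groups overlapped. Col20a1 stayed between 0.79 and 1.39 FPKM in the 9 libraries.

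Multiplexins are collagens of the basement membrane zone that carry sugar chains, and Col18a1 is the source of the fragment endostatin. Col15a1 was at 9.32, 22.08 and 21.56 FPKM with AngII+PGE1, 31.12, 68.48 and 21.73 FPKM with AngII, and 55.91, 23.12 and 44.92 FPKM with saline. AngII+PGE1 lay below saline without overlap, by a narrow gap to saline 2, and the AngII+PGE1 vs saline difference was -1.18 (SE 0.47, limma adjusted p = 1). Col18a1 was at 2.1 to 3.26 FPKM with AngII+PGE1, 3.22 to 7.86 FPKM with AngII and 3.29 to 4.5 FPKM with saline.

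The proportions between chains were then compared in 8 ratios chosen after the values had been seen, a measure in which the scaling of a library cancels. The ratio of Col3a1 to Col1a1 was 1.02, 0.807 and 0.897 with AngII+PGE1, 0.982, 0.938 and 0.808 with AngII, and 1.63, 1.2 and 1.53 with saline. Both AngII-treated groups lay below every saline library and overlapped each other. The ratio of Col5a3 to Col5a1 did the same, at 0.475, 0.334 and 0.366 with AngII+PGE1, 0.528, 0.315 and 0.544 with AngII, and 0.873, 1.0 and 0.869 with saline. By contrast, the ratio of Col4a1 to Col1a1 separated all 3 groups. It was 1.95, 1.39 and 2.06 with AngII+PGE1, 1.23, 0.406 and 0.527 with AngII, and 2.8, 2.22 and 2.57 with saline. Col5a2 relative to Col5a1 was 0.784, 0.768 and 0.644 with AngII+PGE1, 0.734, 1.66 and 1.55 with AngII, and 0.591, 0.703 and 0.668 with saline, where AngII 1 resembled the other groups and AngII 2 and 3 stood above them. Over the 9 libraries the ratio of Col1a1 to Col1a2 ranged from 0.772 to 1.35, that of Col6a1 to Col6a2 from 0.722 to 1.11 and that of Col6a3 to Col6a1 from 0.095 to 0.185. With 3 against 3 libraries an exact two-sided permutation test cannot go below 0.1, which every ratio without overlap reached, and none of the 24 ratio comparisons passed (smallest adjusted exact p = 0.267).

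**Figure D4:**
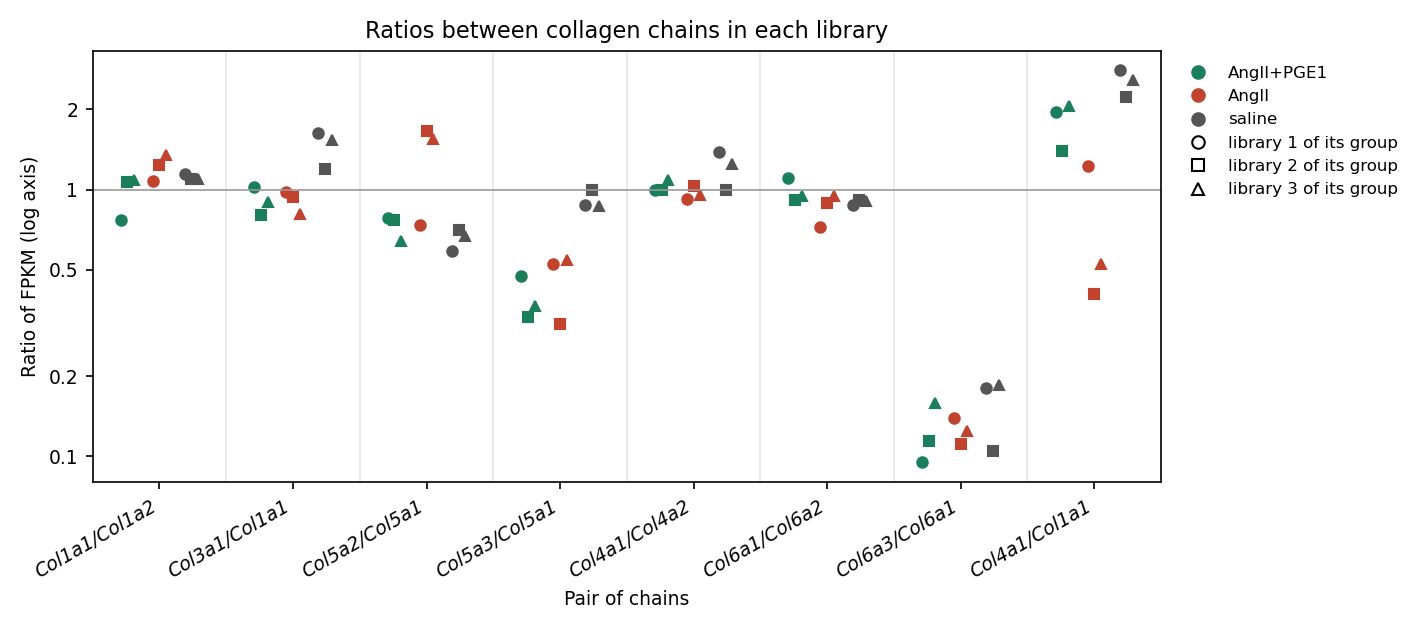
Ratio of FPKM between pairs of collagen chains (log axis) in each library, coloured by group with symbols for the library number. Col3a1/Col1a1 and Col5a3/Col5a1 are lower in all 6 AngII-treated libraries than in the 3 saline libraries.

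The 21 members below the tested level did not exceed 3.98 FPKM in any library, and 13 of them stayed under 1 FPKM throughout. AngII 2 was the highest library for 13 of the 21. Col8a2, the partner chain of Col8a1, was at 0.1, 0.32 and 0.18 FPKM with AngII+PGE1, 0.28, 3.98 and 1.29 FPKM with AngII, and 0.09, 0.13 and 0.28 FPKM with saline. Col9a2, a FACIT chain of cartilage, was at 0, 0.3 and 0.14 FPKM with AngII+PGE1, 0.64, 3.71 and 0.55 FPKM with AngII, and 0.03, 0.06 and 0.1 FPKM with saline. Its AngII libraries lay above all others. Col11a2, a fibrillar chain of cartilage, was at 0.7, 0.11 and 0.24 FPKM with AngII+PGE1, 1.38, 1.04 and 0.79 FPKM with AngII, and 0.41, 0.52 and 0.35 FPKM with saline, again with AngII highest without overlap. The cartilage collagen gene Col2a1 was listed at 0 in 5 libraries and at no more than 0.09 FPKM in the others, and was detected in all 3 AngII libraries. Of the cartilage markers, Acan, a proteoglycan gene, was at 0.01 to 0.06 FPKM with AngII+PGE1, 0.12 to 0.29 FPKM with AngII and 0.01 to 0.03 FPKM with saline. Sox9, a transcription factor of chondrocytes that other cells also express, was at 1.32, 2.05 and 0.93 FPKM with AngII+PGE1, 2.12, 6.97 and 2.91 FPKM with AngII, and 0.91, 1.42 and 1.02 FPKM with saline. Acan and Sox9 were both highest in the AngII libraries without overlap, and the AngII vs saline difference of Sox9 did not pass (1.13, limma adjusted p = 0.068). Matn1, a further listed marker, was at 0.07, 0 and 0.03 FPKM with AngII+PGE1 and 0.07, 0 and 0 FPKM with AngII. It was at 0 in the saline libraries and did not have this order. The listed Bglap and Ibsp had no values. The part of these markers in the collagen values was not tested. Col12a1 and Col22a1, FACIT genes of tendon and muscle junctions, reached 1.68 and 1.11 FPKM in AngII 2, and no more than 0.39 and 0.57 FPKM in the other libraries. Col6a6 had the reverse order, with 0.29, 0.41 and 0.5 FPKM with AngII+PGE1, 0.17, 0.14 and 0.12 FPKM with AngII, and 1.32, 0.32 and 1.04 FPKM with saline. The transmembrane genes Col13a1 and Col23a1 stayed between 0.3 and 0.67 FPKM in every library and showed no order of groups. Values of a few hundredths of an FPKM rest on few reads.

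**Figure D5:**
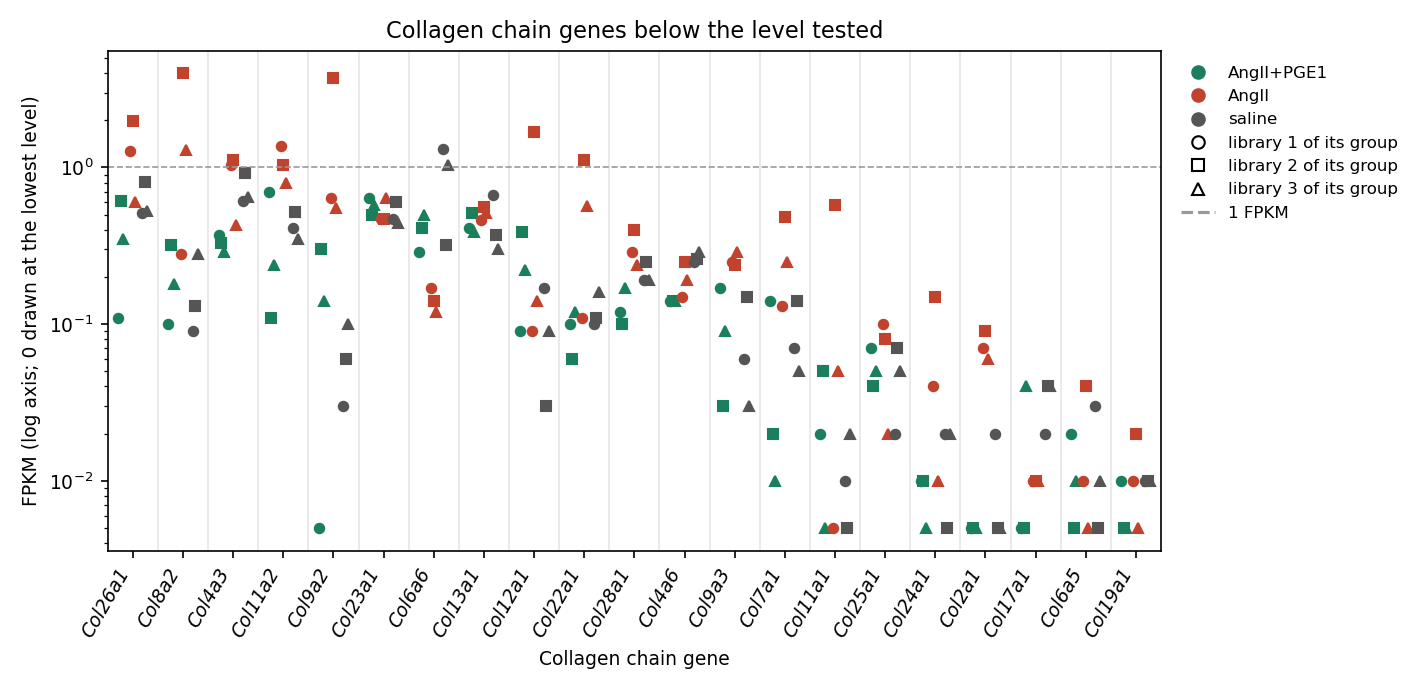
FPKM of the 21 collagen chain genes below the tested level (log axis, values of 0 drawn at the bottom), ordered by mean level, coloured by group with symbols for the library number; the dashed line marks 1 FPKM. AngII 2 (red square) is the highest library for 13 of the 21.

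Genes that make, export, process and bind collagen were followed in 7 lists. Of all tested genes, 3.11% were called in AngII vs saline, 0.403% in AngII+PGE1 vs AngII and 0.0168% in AngII+PGE1 vs saline. A short list without a call is therefore not shown to be unchanged. Of 15 tested genes for folding and modification, none passed in any comparison. AngII+PGE1 lay all below AngII for 6 of them, against 19.7% of all tested genes, and all above for 0. Their AngII+PGE1 vs saline differences were below 0 for 15 of 15, against 66%. Serpinh1, the chaperone HSP47 of procollagen, was at 75.32, 73.94 and 76.73 FPKM with AngII+PGE1, 133.72, 215.4 and 87.98 FPKM with AngII, and 203.26, 93.35 and 174.78 FPKM with saline. The AngII+PGE1 libraries lay below all others and close together. P4hb, a subunit of prolyl 4-hydroxylase, was at 84.1 to 99.62 FPKM with AngII+PGE1, 69.83 to 112.78 FPKM with AngII and 71.88 to 112.6 FPKM with saline. None of the 6 tested genes for export from the endoplasmic reticulum passed, and Sar1b was the most abundant, at 59.24 to 106 FPKM over the 9 libraries. Their AngII+PGE1 vs AngII differences were above 0 for 4 and below 0 for 2, Mia3 (-0.24) and Creb3l1 (-0.53), both named after their values were seen, with a median of 0.41.

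None of the 5 tested genes for propeptide removal passed. Pcolce, an enhancer of the enzyme that removes the carboxyl propeptide, was at 39.46, 54.56 and 48.22 FPKM with AngII+PGE1, 103.01, 139.82 and 61.41 FPKM with AngII, and 64.31, 60.13 and 52.8 FPKM with saline. Bmp1, that enzyme, had an AngII+PGE1 vs AngII difference of -1.13 (SE 0.23, limma adjusted p = 0.0557). Of 4 tested lysyl oxidase genes, which crosslink fibrils, 1 rose in AngII vs saline, against 3.11% of all tested genes called, and none passed otherwise. Loxl3 was at 1.86, 1.53 and 1.49 FPKM with AngII+PGE1, 3.6, 12.36 and 7.29 FPKM with AngII, and 1.59, 2.74 and 1.59 FPKM with saline. All AngII libraries lay above all others, and the AngII vs saline difference was 1.45 (SE 0.33, limma adjusted p = 0.0471). The Loxl3 call was lost without AngII 2, AngII 3, saline 1 or saline 3, where no gene at all was called in this comparison. Whether it held in the other alternative settings was not examined. Loxl1, the most abundant of them, was at 12.8 to 20.97 FPKM with AngII+PGE1, 27.9 to 70.39 FPKM with AngII and 22.44 to 34.66 FPKM with saline. None of the 11 fibril-associated proteoglycans and organisers passed. Sparc, a collagen-binding protein, was at 122.18, 190.9 and 187.09 FPKM with AngII+PGE1, 445.88, 900.03 and 378 FPKM with AngII, and 373.71, 282.6 and 305.83 FPKM with saline, with no overlap between any groups. Decorin (Dcn), which regulates fibril width, was at 249.01 to 357.34 FPKM with AngII+PGE1, 332.77 to 512.86 FPKM with AngII and 279.82 to 351.21 FPKM with saline. None of the 7 tested collagen receptor genes and none of the 3 tested degrading enzymes passed. Itgb1, the integrin beta 1 chain, was at 66.8 to 127.26 FPKM and the gelatinase Mmp2 at 16.36 to 85.92 FPKM over the 9 libraries, both highest in AngII 2.

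Markers of the cells that make collagen were set beside the chains. The summed level of 8 fibroblast markers was 793.7, 870.7 and 888.3 FPKM with AngII+PGE1, 849.3, 1289 and 753.3 FPKM with AngII, and 984.1, 928.2 and 849.4 FPKM with saline. AngII 2 was highest here too, but members of the sum had differences of opposite sign. Gsn, an actin-severing protein gene and on average the most abundant of them, fell in AngII vs saline (log2 difference -1.23, SE 0.18, limma adjusted p = 0.0332) and rose in AngII+PGE1 vs AngII (1.18, SE 0.18, limma adjusted p = 0.0427). The other 7 did not pass, where 3.11% and 0.403% of all tested genes were called in these comparisons. Vim, the intermediate filament gene vimentin, was at 199.01, 149.76 and 146.1 FPKM with AngII+PGE1, 397.89, 676.67 and 319.41 FPKM with AngII, and 158.51, 260.12 and 128.6 FPKM with saline. All AngII libraries lay above all others for Vim, and likewise for Mfap5, a microfibril gene, with AngII vs saline differences of 1.33 and 1.84 (limma adjusted p = 0.0513 and 0.0587). The fibroblast receptor gene Pdgfra was at 5.04, 4.36 and 5.5 FPKM with AngII+PGE1, 3.77, 6.87 and 4.32 FPKM with AngII, and 7.26, 6.38 and 6.61 FPKM with saline. AngII 1 and 3 lay below saline, and AngII 2 within its range. Of 9 smooth muscle and pericyte markers, with sums of 224.4 to 264.4 FPKM with AngII+PGE1, 220.4 to 448.8 FPKM with AngII and 334.0 to 456.9 FPKM with saline, 2 passed in AngII vs saline, against 3.11% of all tested genes. Cnn1 rose (log2 difference 1.85, limma adjusted p = 0.0375) and Abcc9 fell (log2 difference -1.25, limma adjusted p = 0.0403). As for Loxl3, the AngII vs saline calls of Gsn, Cnn1 and Abcc9 were lost without AngII 2, AngII 3, saline 1 or saline 3. The other alternative settings were not examined for these genes, nor any for the Gsn call in AngII+PGE1 vs AngII. The sum of 8 macrophage and monocyte markers overlapped between all groups, at 210.8 to 392.8 FPKM. So did those of 5 mesothelial markers, at 1.51 to 35.5 FPKM, and of 4 Schwann cell markers, at 3.14 to 6.22 FPKM. The part of these cell types in the collagen levels was not tested.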

How the data were processed

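Per the labels' protocols, Trizol RNA from heart was purified on oligo(dT) beads, fragmented, copied with random hexamers and sequenced as single-end reads of 50 bases on a BGISEQ-500. HISAT2 2.0.4, Bowtie2 2.2.5, RSEM 1.2.12 and mm9 are named in the submitters' processing notes, with no role stated; the sources used here name neither annotation nor strand. The values the authors deposited are FPKM, a unit read from the values: column sums differed by a ratio of 1.26, sums of value times transcript length by 1.09. The authors' deposited log2 ratios were not used. FPKM divides by the reads on genes, so abundant transcripts lower all others. Depth was estimated from steps between low values of short genes and entered no test, and no count model was run.

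Each column's name gave its group but not its labelled replicate. limma 3.58.1 in R 4.3.3 was fitted to log2(FPKM + 1) of all 9 libraries for the 11902 genes that reached 1 FPKM in 3 or more libraries. The model had a mean per group, a variance trend and 6 residual degrees of freedom. It was run first on simulated data with independent noise of reduced size. That run was required only to recover the size of the differences, so it does not bear on the calls or p-values here. Adjustment was by Benjamini-Hochberg. SEs and 95% intervals rest on a spread within groups that is shared by all 9 libraries and adjusted with that of other genes. A gene therefore has the same SE in all 3 comparisons, and a wide spread in 1 group enters each of them. Chains with a mean of 5 FPKM or more, or past the threshold, are given per library; others are named as examples, some chosen after their values were seen. In the pathway lists, members past the threshold and the most abundant 1 or 2 are named; marker genes, unless past the threshold, were chosen after their values were seen. Members, lists and alternatives were chosen with earlier results of these data known. Promoter windows came from a RefSeq table of GRCm38.p6, matched by symbol, and no coordinates were converted from mm9.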

Additional observations from a re-analysis of the deposited data

How the results depend on the processing

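The alternatives tried were testing without a filter, raising it to 5 FPKM, lowering the pseudocount to 0.1, median-ratio scaling, quantile normalization, robust limma, a term for the side of the first component, the 2 compared groups only and each library left out. The side was taken from the same tested genes. It was shared by all AngII libraries, so its term overlaps with the AngII group and rests on saline 2 and AngII+PGE1 1. For AngII vs saline the 1 collagen called became 0 with no filter or with the side term, and 2 with quantile normalization or the 2 groups only. Of all genes, 0.519%, 0.176%, 4.98% and 3.27% were called in these settings. Leaving out 1 library gave 0 to 3 collagens. Without AngII 2, AngII 3, saline 1 or saline 3 no gene at all was called, and without saline 2 the calls were 38.1% of all genes. For AngII+PGE1 vs AngII the 0 called became 1 with median-ratio scaling (2.82% of all genes called), which shifted the difference of each gene by a median of 0.123 (19 of 20 collagens below 0, median -0.92). It became 6 with the 2 groups only (Col1a1, Col1a2, Col3a1, Col5a3, Col16a1 and Col27a1; 7.91% of all genes called), and 0 to 9 on leaving out 1 library: 5 without AngII+PGE1 1 and 9 without saline 2, where 26.9% and 20.6% of all genes were called. For AngII+PGE1 vs saline it was 1 with the side term (Col5a3, with 0.0504% of all genes called) and 0 to 1 on leaving out 1 library. The cause was not tested.

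Signs of small, uncalled AngII vs saline differences turned. With the side term Col4a1, Col4a2, Col6a3 and Col15a1 were at 0.17, 0.32, 0.61 and 0.64. Leaving out 1 library, Col4a2 ranged from -0.45 to 0.10, Col4a4 from -0.26 to 0.036, Col5a1 from -0.33 to 0.41, Col6a1 from -0.30 to 0.51, Col6a2 from -0.18 to 0.60, Col6a3 from -0.47 to 0.21 and Col15a1 from -0.56 to 0.25. In AngII+PGE1 vs saline Col8a1 ranged from -0.15 to 0.60. In AngII+PGE1 vs AngII Col20a1 turned from below 0 to 0.0007 with median-ratio scaling and 0.12 with quantile normalization; no other tested collagen changed sign there. No paired analysis was possible because the columns carry no replicate numbers of the labels. Chains under 1 FPKM are limited by depth.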
